A study of Gallus gallus with 48 samples.

Results

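SALL1, KLHL14 and FOXC2 were followed across 48 samples of chicken pituitary cells. The genes were chosen by their measured log2 ratios in cells given corticosterone after cycloheximide, with earlier results of these data known. They are 3 of 5644 named genes with enough values to be tested, and each was reported by 1 cDNA probe that gave a value on 48 of 48 arrays. In the deposited log2 ratios, SALL1 and KLHL14 were at their lowest when corticosterone followed cycloheximide for 12 h and 24 h. At 24 h they lay 3.97-fold and 3.93-fold below cycloheximide alone. Their probes tracked other probes printed mostly in the same few rows of the array's blocks. Whether they measured the named transcripts was not tested. FOXC2 lay 1.83-fold above cycloheximide alone at 6 h and was back near it at 24 h. The rule of choice also took in values with corticosterone alone, so tests on them are not independent of it. In those tests none of the 3 genes passed at any duration.

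SALL1 is a spalt-type zinc finger transcription factor that represses genes by recruiting the NuRD deacetylase complex, and it is known for its part in kidney and limb development and in the identity of microglia. KLHL14, also called Printor, belongs to the BTB-kelch proteins, many of which bring substrates to ubiquitin ligases built on the cullin CUL3, and in mammalian cells it binds the ATPase torsinA. FOXC2 is a forkhead transcription factor of mesenchyme, blood vessels and lymphatic valves. Cycloheximide (CHX) stops translation on ribosomes, so that a response which needs a newly made protein is blocked, while transcripts that a short-lived repressor or nuclease keeps low can accumulate.

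The cells were dispersed from the anterior pituitary of chicken embryos at embryonic day 11, with no transgene or genetic change named in the labels, and were kept as a mixed primary culture in serum-free medium. They received corticosterone (CORT), the main glucocorticoid of birds, at 1e-09 M for 1.5 h, 3 h, 6 h, 12 h or 24 h, or none at all (0 h), either directly or following 1.5 h in CHX (10 micrograms per ml). With 4 replicates in each of 12 groups, the 0 h group lacking both agents is named untreated and the 0 h group with CHX is named CHX alone, and "after CHX" gives the order of the agents, since the labels do not say whether CHX was washed out. No group without CORT was kept past 0 h, and the effects of CORT and of time in culture cannot be told apart. In the groups after CHX, the time in or since CHX rose with the hours of CORT and cannot be told apart from them either. The labels call the replicates biological without saying that they came from separate dispersions, so the spread behind each p-value may be technical. In such bulk samples fewer cells of a type and less RNA per cell cannot be told apart.

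Each array gave the log2 ratio of 1 sample to a pool of all 48 samples, so a level below is a ratio to that pool and carries no order between genes. A positive value was taken to mean more in the sample than in the pool, a direction that is likely from FKBP5, a gene that glucocorticoids induce, which lay higher with CORT in 10 of 10 comparisons (log2 differences of 0.62 to 1.82). With the opposite sign every direction below would turn. Between 14609 and 16840 probes had a value per array, and no spot intensities were used, so signal over background is unknown and the number of arrays limits precision. Array pairs correlated between -0.76 and 0.87 over all probes, and between -0.69 and 0.79 within groups, although all arrays carry the dyes the same way round per the labels. Within groups 51.6% of the spread ran along 1 shared axis, and SALL1, KLHL14 and FOXC2 correlated with it at 0.80, 0.70 and 0.58 over the 48 arrays after group means were removed. A ratio to a pool of the same samples cannot show whether a marker is expressed, so the pituitary origin rests on the labels.

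The probes of SALL1 and KLHL14 stood apart from most of the array in 1 respect that touches every value given for them. Among 10533 probes with a value on all arrays, 43 had a correlation above 0.9 with the SALL1 probe over the 48 arrays and 37 with the KLHL14 probe, while the median probe had 0 such partners (6% of probes had as many as SALL1 and 7.07% as many as KLHL14). This cutoff was chosen after the values were seen. Of SALL1's partners 41 (95.3%) were printed in rows 1 to 3 of their print blocks, and of KLHL14's 34 (91.9%), against 18.2% of all these probes, and both genes' own spots lie in row 3. The partners were spread over 30 and 26 of the 48 print blocks. The partner sets shared 31 probes, which is 72.1% of SALL1's and 83.8% of KLHL14's. Large partner sets also occurred outside rows 1 to 3. Among the probes in rows 1 to 3, 9.28% had as many partners as SALL1 and 11.2% as many as KLHL14. In the other rows these shares were 5.27% and 6.15%.

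**Figure D1:**
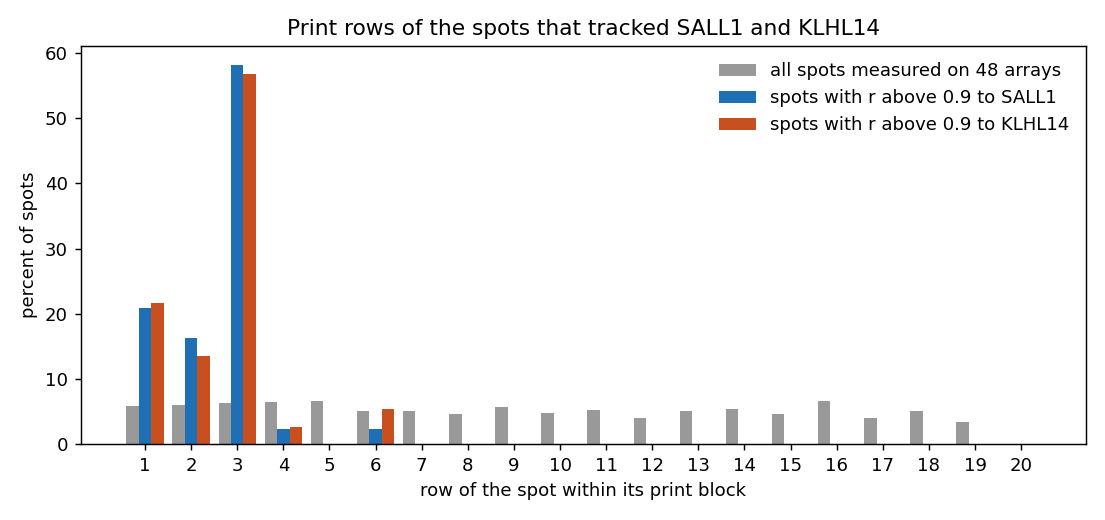
Share of spots (percent, vertical axis) in each row of a print block (horizontal axis) for all spots measured on 48 arrays, for spots with r above 0.9 to SALL1 and for spots with r above 0.9 to KLHL14. The partner spots gather in rows 1 to 3 (95.3% and 91.9%), where 18.2% of all spots lie.

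Where a partner's gene had a further probe elsewhere on the array, that probe mostly did not track the member. For SALL1 this held 19 genes, whose further probes (median per gene) correlated with SALL1 between -0.48 and 0.86, with a median of 0.09, 13 of them below 0.5 and 0 above 0.9. For KLHL14 it held 16 genes, between -0.40 and 0.91, with a median of 0.06 and 13 below 0.5. The other probe of GTPBP2 (row 5) correlated with SALL1 at -0.13 and that of ARHGAP21 (row 9) at 0.03. That of OGN, a small matrix proteoglycan, did so at 0.83 and itself lies in row 3. Some further probes outside rows 1 to 3 also had high correlations with SALL1. They were those of TUBB2B (row 15, 0.86), STK32B (row 6, 0.82) and CLSTN3 (row 6, 0.79). Neither SALL1 nor KLHL14 has a further probe that could be set beside its own. Whether their spots measured the named transcripts or something that spots of those print rows share was not tested. FOXC2, printed in row 4, had 1 partner above 0.9, a probe of SH3BP5.

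SALL1 was highest in the untreated cells and lowest at 24 h of CORT after CHX. Its 4 untreated samples gave log2 ratios of -0.14, 0.64, 1.11 and 0.61, in the order of replicates 1 to 4. The samples with CHX alone gave -0.05, 0.61, 0.69 and 0.62. In both 0 h groups replicate 1 was the lowest, and the groups overlapped almost wholly.

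With CORT alone the SALL1 values stayed within the span of the untreated samples or below it. At 1.5 h they were -0.0007, 0.27, 0.42 and 0.45. At 3 h they were -0.53, 0.31, -0.26 and 1.02. At 6 h they were -0.37, 0.54, -0.02 and 0.21. Replicate 1 was the lowest in each of these 3 groups, and each overlapped the untreated cells. The values were -0.75, 0.27, -0.999 and 0.40 at 12 h and -0.89, 0.75, 0.03 and 0.16 at 24 h. Both late groups reached far below the untreated samples in some replicates and into their range in others.

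After CHX the SALL1 values were below those of CHX alone in every replicate at 12 h and 24 h. The 1.5 h samples gave -0.69, 0.30, 0.21 and 0.52. Those at 3 h gave -0.88, -0.83, -0.50 and 1.01, and those at 6 h gave -0.77, 0.15, -0.83 and 0.25. At these 3 durations at least 1 sample lay within or above the range of CHX alone. By 12 h the 4 samples were at -0.95, -0.40, -1.97 and -0.57, and by 24 h at -1.51, -1.50, -0.98 and -2.10. Neither of the last 2 groups overlapped CHX alone, and at 24 h the highest sample (-0.98) lay below the lowest of the 4 samples with 24 h of CORT alone (-0.89).

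KLHL14 followed a similar course, also with its lowest mean at 24 h of CORT after CHX. Unlike SALL1, it had its highest mean at 1.5 h of CORT alone and not in untreated cells. The untreated samples had log2 ratios of -0.01, 0.43, 0.87 and 0.31. CHX alone gave 0.22, 0.43, 0.13 and 0.26. The groups overlapped, and the CHX samples were closer together.

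With CORT alone KLHL14 stood at 0.42, 0.48, 0.56 and 0.47 at 1.5 h. It stood at -0.18, 0.44, -0.04 and 0.96 at 3 h, and at -0.01, 0.52, -0.02 and 0.14 at 6 h. The 1.5 h samples were close together near the middle of the untreated range. Those of 3 h spread over that range and past both of its ends. Those of 6 h ran from slightly below it to 0.52 and did not reach its upper part. The 12 h samples gave -0.67, 0.19, -0.58 and 0.35. The 24 h samples gave -0.46, 0.48, 0.23 and 0.23. At 12 h replicates 1 and 3 lay below every untreated sample, and at 24 h replicate 1 alone did.

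After CHX the KLHL14 values were -0.37, 0.23, -0.05 and 0.35 at 1.5 h. They were -0.67, -0.88, -0.71 and 0.68 at 3 h. They were -0.60, 0.12, -0.80 and -0.17 at 6 h. The 1.5 h group overlapped CHX alone, the 3 h group lay below it in replicates 1 to 3 and above it in replicate 4, and all 4 samples of the 6 h group lay below it, replicate 2 narrowly. At 12 h the values were -0.98, -0.51, -1.75 and -0.76. At 24 h they were -1.64, -1.88, -1.06 and -2.27. All 8 of these samples lay below every sample with CHX alone, and those of 24 h below every sample with 24 h of CORT alone.

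FOXC2 had another course, with its highest group mean at 6 h of CORT after CHX. The untreated samples gave log2 ratios of -0.51, -0.26, 0.08 and -0.10. CHX alone gave -0.38, 0.05, -0.17 and 0.20. These 2 groups overlapped. With CORT alone the values were -0.24, -0.05, -0.56 and 0.01 at 1.5 h. They were -0.33, -0.50, -0.33 and -0.17 at 3 h, and -0.43, -0.39, -0.71 and -0.09 at 6 h. The 1.5 h samples spread over the untreated range and slightly below it, and those of 3 h and 6 h had lower means than the untreated cells, with overlap. At 12 h FOXC2 stood at -0.44, -0.33, -0.43 and -0.07, and at 24 h at -0.44, -0.49, -0.45 and -0.44. The 24 h samples were the closest together of all 12 groups and still overlapped untreated replicate 1.

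After CHX the FOXC2 samples of 1.5 h were at -0.30, 0.09, 0.07 and 0.03. Those of 3 h were at 0.12, -0.03, 0.23 and 0.46. The first group lay within the range of CHX alone, and the second reached above it in 2 samples. At 6 h all 4 samples were high, at 0.70, 0.77, 0.88 and 0.85. At 12 h the values were 0.60, -0.26, 0.74 and 0.56. At 24 h they were -0.27, 0.27, -0.01 and -0.05. The 6 h group lay above every other FOXC2 sample of the study except 1 of 12 h (0.74), replicate 2 of 12 h lay within the range of CHX alone, and the 24 h group overlapped CHX alone.

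**Figure D2:**
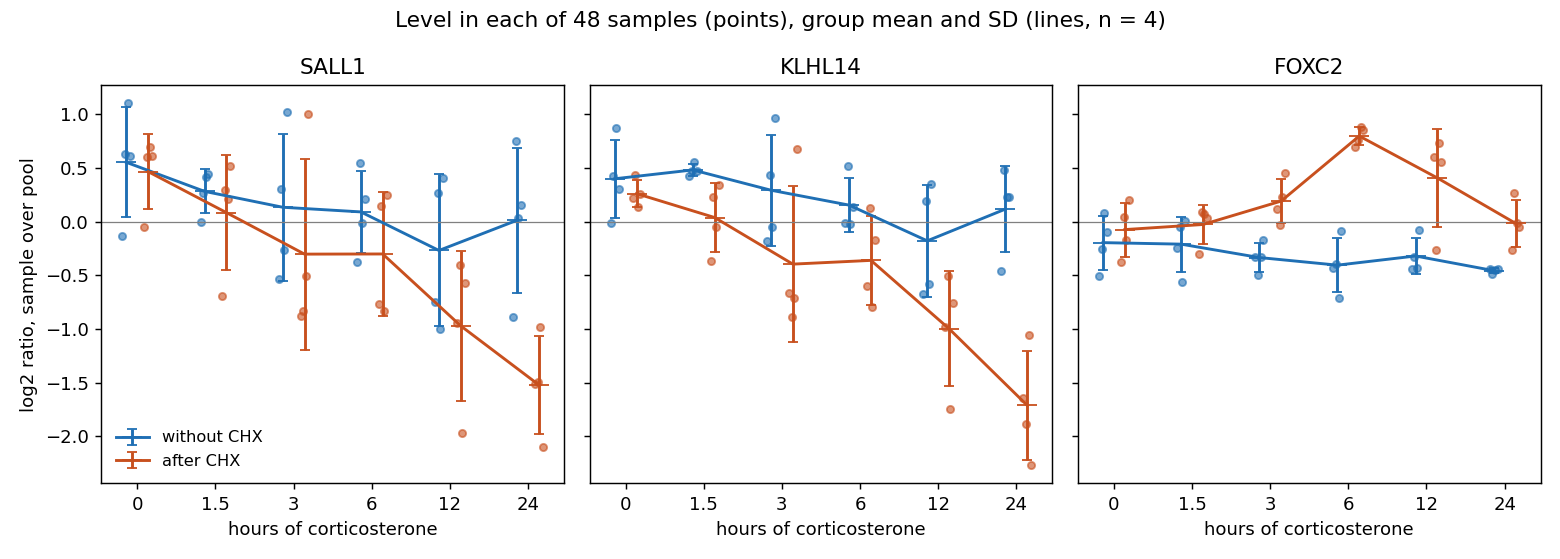
Log2 ratio of sample to pool (vertical axis) against hours of CORT (horizontal axis) for SALL1, KLHL14 and FOXC2 without CHX and after CHX. Points are the 48 samples, and lines join group means with SD bars (n = 4). SALL1 and KLHL14 end at means of -1.52 and -1.71 at 24 h after CHX, and FOXC2 peaks at 0.80 at 6 h after CHX.

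Ordered by group mean, SALL1 ran from 0.55 ± 0.51 (SD, n = 4) in untreated cells to -0.97 ± 0.70 at 12 h and -1.52 ± 0.45 at 24 h of CORT after CHX. Of its 11 gaps between neighbours in that order, 0 exceeded the larger SD of the pair. KLHL14 ran from 0.48 ± 0.05 at 1.5 h of CORT alone to -0.998 ± 0.53 and -1.71 ± 0.51 at 12 h and 24 h after CHX, and 1 of 11 gaps exceeded the larger SD, that between the last 2 groups (0.71). FOXC2 ran from 0.80 ± 0.08 at 6 h and 0.41 ± 0.45 at 12 h after CHX to -0.46 ± 0.02 at 24 h of CORT alone, with 0 of 11 gaps above the larger SD. All 6 FOXC2 groups with CHX ranked above all 6 without.

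The genes were chosen for values after CHX, but the rule of choice took in log2 ratios of all 12 groups in both arms. Values with CORT alone were thus among those used, and tests on them are not independent of the choice. CORT alone against untreated cells was tested with limma over all 11207 features (genes and unnamed probes), with that limit on its independence. SALL1 differed by -0.27, -0.42, -0.46, -0.82 and -0.54 on the log2 scale at 1.5, 3, 6, 12 and 24 h (SE 0.39 each). KLHL14 differed by 0.08, -0.11, -0.25, -0.58 and -0.28 (SE 0.29). FOXC2 differed by -0.01, -0.14, -0.21, -0.12 and -0.26 (SE 0.16). None of these 15 differences passed, with limma's adjusted p at 1 in every case but those of 24 h (0.999).

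The smallest unadjusted limma p was that of SALL1 at 12 h (0.0433), where 4 of 4 samples lay below the untreated mean and the 95% interval ran from -1.62 to -0.03. KLHL14 at 12 h came next, with 4 of 4 samples below the untreated mean, an interval of -1.17 to 0.02 and limma's p at 0.0561 before adjustment (1 after it). For FOXC2 the smallest was at 24 h, with an interval of -0.59 to 0.07 and limma's p at 0.115 before adjustment (adjusted p = 0.999). An interval that includes 0 does not show that the level was equal. Over the 5 durations together, limma's moderated F was 0.97 for SALL1 (unadjusted p = 0.448), 1.29 for KLHL14 (0.286) and 0.82 for FOXC2 (0.541), all with an adjusted p of 1.

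The background of these tests was small. At 1.5 h of CORT 0% of features were called by limma (672 had an unadjusted p below 0.05), at 3 h 0.0268%, at 6 h 0.0982%, and at 12 h and 24 h 0.0178% each. With the replicate number as a block the 24 h share became 0.0446%, and no member was called. The F-test called 0.0268% of features. The sample ranges of all 3 genes overlapped those of untreated cells at each duration, where 3.05%, 1.06%, 1.3%, 1.45% and 1.62% of features did not overlap. The 3 genes' count of 0 is thus near the background and says nothing particular about them.

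The comparisons with CHX groups are given as a description with no p, because the genes were chosen for their values after CHX. CHX alone against untreated gave log2 differences of -0.09 for SALL1 (95% interval -0.88 to 0.71), -0.14 for KLHL14 (-0.73 to 0.46) and 0.12 for FOXC2 (-0.21 to 0.45). Against CHX alone, SALL1 lay lower by log2 differences of -0.38, -0.77, -0.77, -1.44 and -1.99 at 1.5, 3, 6, 12 and 24 h of CORT after CHX (SE 0.39). KLHL14 gave -0.22, -0.66, -0.62, -1.26 and -1.97 (SE 0.29). At 24 h the 95% intervals were -2.78 to -1.19 for SALL1 and -2.57 to -1.38 for KLHL14.

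FOXC2 gave log2 differences from CHX alone of 0.05, 0.27, 0.87, 0.48 and 0.06 (SE 0.16). The 6 h interval was 0.55 to 1.20 and that of 24 h -0.27 to 0.39. At 12 h the interval was 0.15 to 0.81, and 1 sample decided much of the value: without replicate 2 of the 12 h group the difference was 0.70, and without replicate 2 in every group 0.74. The higher level at 6 h and the level near CHX alone at 24 h are a description of 4 samples per group.

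**Figure D3:**
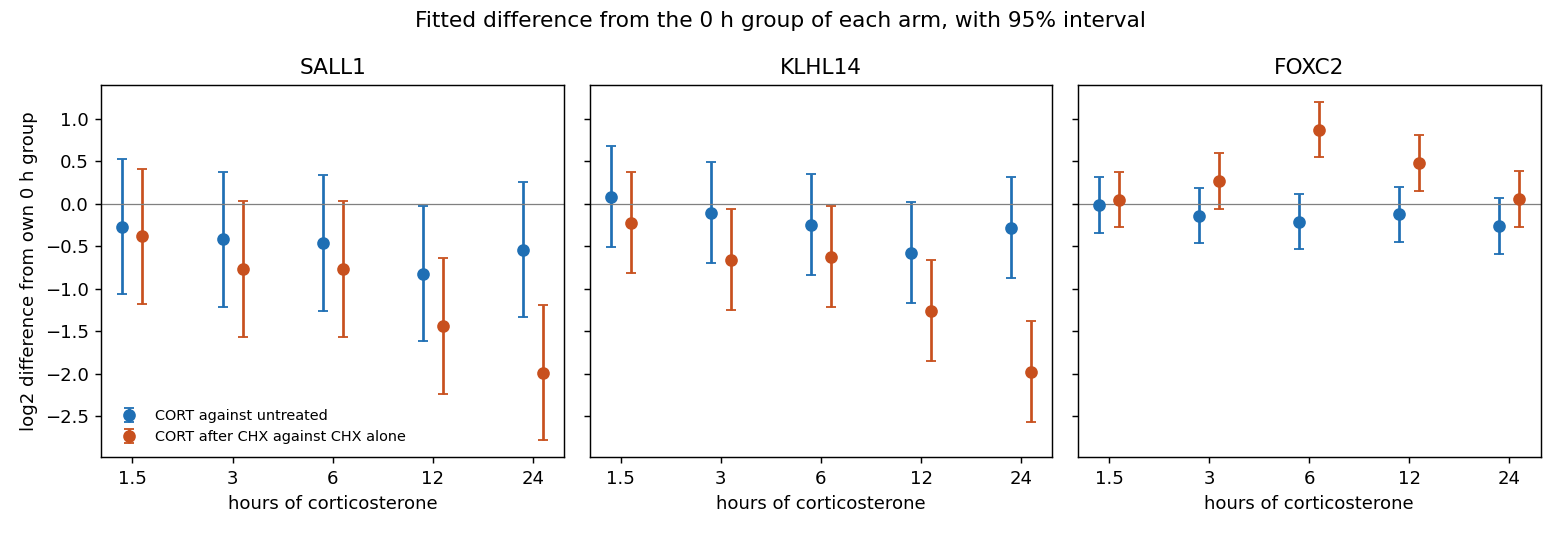
Fitted log2 difference (vertical axis) from the 0 h group of the same arm against hours of CORT (horizontal axis), with 95% intervals. The intervals use limma's moderated degrees of freedom, which exceed the 36 residual ones of the model. The intervals of SALL1 and KLHL14 after CHX lie below 0 at 12 h and 24 h, those of KLHL14 also at 3 h and 6 h, and those of FOXC2 above 0 at 6 h and 12 h. Without CHX, 1 of 15 intervals leaves out 0, that of SALL1 at 12 h, and it did not pass after adjustment.

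By limma's adjusted threshold of 0.05 FOXC2 was among the features called higher at 6 h, KLHL14 among those called lower at 12 h and 24 h, and SALL1 among those called lower at 24 h. The shares of all features called in either direction were 0.0178% for CHX alone against untreated, and 0.0178%, 0.0268%, 1.15%, 1.12% and 2.24% at the 5 durations after CHX. Those called higher at 6 h made up 0.758%, and those called lower 0.598% at 12 h and 1.6% at 24 h. With the replicate number as a block the 6 h share was 3.35%. The sample ranges did not overlap those of CHX alone for KLHL14 at 6, 12 and 24 h, for SALL1 at 12 and 24 h and for FOXC2 at 6 h, where 5.69%, 4.91% and 6.95% of all features did not overlap at 6, 12 and 24 h (0.999% and 2.81% at 1.5 and 3 h, and 1.22% for CHX alone against untreated). Since the choice of the genes used these comparisons, nothing is read from the counts, and the calls of the 3 genes are no test of them. Leaving out replicate 3 in every group took FOXC2 at 6 h above the threshold of the adjusted p (log2 difference 0.81), leaving out replicate 2 in every group did so for SALL1 at 24 h (-1.95), and the call of KLHL14 at 12 h was lost in 8 of 20 settings (-1.01 to -1.37).

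Set against the same duration of CORT without CHX, SALL1 gave log2 differences of -0.20, -0.44, -0.39, -0.70 and -1.54 at 1.5 to 24 h. KLHL14 gave -0.44, -0.69, -0.52, -0.82 and -1.83. FOXC2 gave 0.18, 0.53, 1.20, 0.73 and 0.44, of which the 6 h value is 2.30-fold (interval 0.88 to 1.53). The 2 arms did not overlap for FOXC2 at 3, 6 and 24 h, for KLHL14 at 1.5 and 24 h and for SALL1 at 24 h, while 5.1%, 3.42%, 10.6%, 4.33% and 10.3% of all features did not overlap at the 5 durations. The called shares were 0.393%, 0.161%, 3.93%, 1.4% and 4.95%, and with the replicate number as a block 1.71%, 8.53% and 13.9% at 1.5, 6 and 24 h. FOXC2 was among the features called higher at 6 and 12 h (2.87% and 0.91%), and at 24 h with the block, and SALL1 and KLHL14 among those called lower at 24 h (2.73%). These comparisons share the samples after CHX with those above and are no second measurement of them. The calls of the 3 genes here are likewise no test of them.

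SALL1 and KLHL14 moved together from sample to sample. Over the 48 arrays their log2 ratios correlated at r = 0.95 (Spearman rho 0.91), and at 0.93 without the 2 arrays farthest from the SALL1 median. After group means were removed r was 0.94, it was 0.94 in the 24 arrays without CHX and 0.96 in the 24 with it, and the 12 group means gave 0.98. These points share their arrays, their pool and the print row described above, so the values describe the pair and carry no test. SALL1 and FOXC2 correlated at -0.18 (0.25 within groups) and KLHL14 and FOXC2 at -0.30 (0.16 within groups). In the arrays without CHX these were 0.46 and 0.45, and in those with CHX -0.04 and -0.05.

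**Figure D4:**
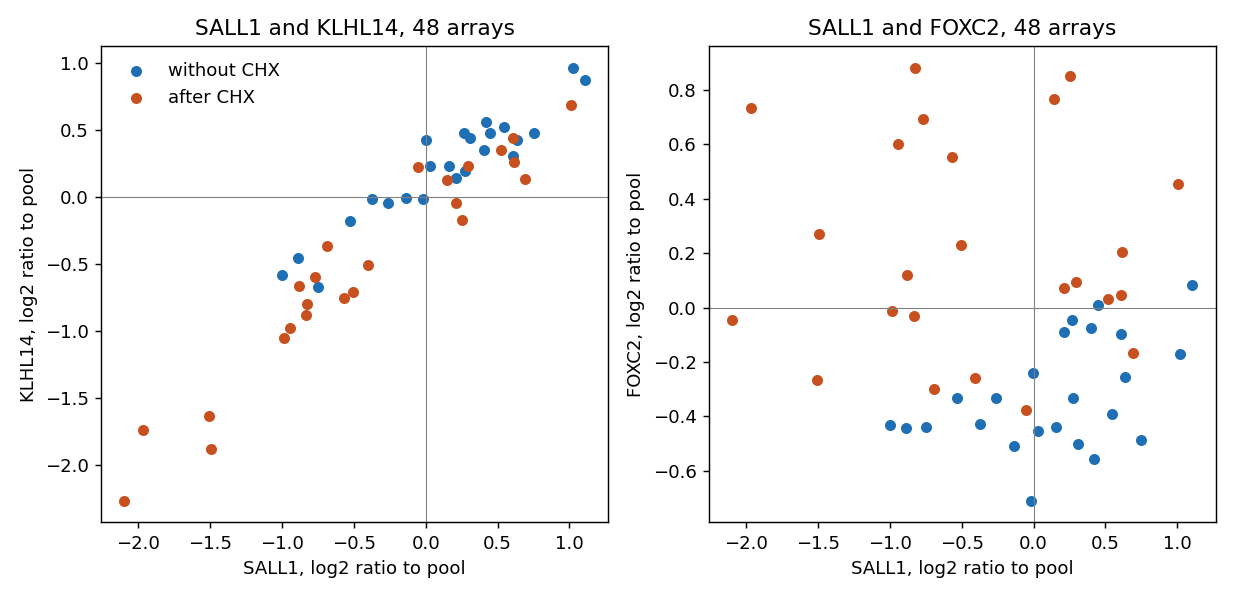
Log2 ratios of KLHL14 (left) and FOXC2 (right) against SALL1 on 48 arrays, coloured by arm. KLHL14 and SALL1 lie along 1 line in both arms (r = 0.95), and FOXC2 and SALL1 do not (r = -0.18 over all arrays, 0.46 without CHX and -0.04 after CHX).

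Part of the spread went with the replicate number. SALL1 lay on average 0.48 below its group means in replicate 1 (mean deviation -0.48) and above them in replicate 4 (0.36). KLHL14 had mean deviations of -0.25 in replicate 1 and 0.20 in replicate 4, and FOXC2 of -0.11 and 0.15. The mean score on the shared axis was -0.19 in replicate 1 and 0.13 in replicate 4. What samples of equal number have in common is not given, and its part in these results was not tested.

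The genes most like each member were taken by Pearson correlation of 12 group means, over 5643 other named genes, as a description of means that share their arrays and pool. For SALL1 they were ATXN7L1 (0.99), NECAB1 (0.98), KLHL14 (0.98), ACAD11 (0.98) and GRIN1 (0.98), the last an NMDA receptor subunit. ZC3H8 (-0.99) and CAMK4L (-0.94) were the most opposed. For KLHL14 they were NECAB1, IGFBP7, ATXN7L1, GRIN1 and CD38 (0.99 each), with ZC3H8 (-0.96) and VAPB (-0.94) most opposed. ATXN7L1, NECAB1, ACAD11, GRIN1, IGFBP7 and CD38 are also among the genes with a partner probe above 0.9. Their log2 differences at 24 h of CORT after CHX from CHX alone were -1.13 for ATXN7L1, -1.66 for NECAB1, -1.66 for IGFBP7 and -1.34 for GRIN1. Those of ACAD11 and CD38, each a mean of 2 probes, were -0.84 and -1.52. These genes were picked for likeness over group means that include this group, so nothing is read from these differences. By Spearman correlation 2 of the 5 nearest genes stayed the same for SALL1 and 2 for KLHL14.

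FOXC2 was most like SULT4A1, a sulfotransferase of the brain in mammals (0.95), ETS1, a transcription factor of endothelium and lymphocytes (0.95), PTCD3 (0.95), SLCO3A1, an organic anion transporter (0.94), and ARL6 (0.94). At 6 h of CORT after CHX these lay above CHX alone by log2 differences of 0.80 for SULT4A1 (SE 0.18), 0.49 for ETS1 (0.15), 0.25 for PTCD3 (0.14), 0.42 for SLCO3A1 (0.12) and 0.41 for ARL6 (0.17). All 5 lay closer to CHX alone at 24 h, between 0.02 and 0.17. They were picked for likeness to FOXC2 over group means that include both durations, so nothing is read from this course. TF, the iron carrier transferrin (-0.97), and SAR1A, a GTPase of vesicle budding (-0.95), were the most opposed, at -0.20 and -0.25 at 6 h. By Spearman correlation 0 of the 5 nearest genes stayed the same.

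Counts in the lists of related genes are read against the share of all features called, which was 0% to 2.24% in the 11 comparisons with a 0 h group, so a count of 0 in a short list is near the background. Of the SALL1 family (SALL2, SALL3 and SALL4) 0 of 3 genes had enough values. Of 14 NuRD genes 8 were tested, and 0 rose and 0 fell in any of those comparisons. At 24 h of CORT after CHX the 8 had a median log2 difference of 0.08 against 0.05 over all features, 5 above 0 and 3 below. They ran from the deacetylase HDAC2 at -0.42 (SE 0.32) to MTA1 at 0.20 (SE 0.08). CHD4, the remodelling ATPase, was at -0.27 (SE 0.17).

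Of 48 further BTB-kelch genes 12 were tested, of 8 CUL3 ligase genes 5 and of 7 torsin genes 5, and 0 of these were called, again near the background. At 24 h after CHX the kelch genes had a median of 0.04, 7 above 0 and 5 below, and their largest difference was 0.19 in KLHL28. CUL3 itself was at 0.27 (SE 0.31), and TOR1A, the gene of torsinA, at -0.10 (SE 0.10). Between arms, UBA3, a subunit of the enzyme that activates NEDD8 for cullins, was higher after CHX at 6 h (log2 difference 0.65, limma's adjusted p = 0.0292). It is named after its value was seen, and this call was not repeated in other settings.

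Of 38 further forkhead genes 6 were tested, and FOXC1, the closest relative of FOXC2, was not analysed here. At 6 h of CORT after CHX, when FOXC2 was highest, their median log2 difference from CHX alone was near 0 (3 above and 3 below), from -0.25 in FOXN2 to 0.13 in FOXJ1. Of 20 genes of FOXC-dependent vessel and lymphatic development 7 were tested, with a median of -0.07 at 6 h against -0.00 over all features. Of 32 mesenchymal and kidney factors 9 were tested and of 27 pituitary factors 8. Of these 4 lists 0 genes were called in the 11 comparisons, near the background. PRRX1, a mesenchymal homeobox factor, was higher after CHX at 24 h between arms (log2 difference 0.48, limma's adjusted p = 0.03). This too was named after its value was seen and was not repeated in other settings.

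Of 20 listed glucocorticoid targets 11 were tested. With CORT alone 1 of 11, FKBP5, rose at 3 h and at 6 h, and 0 of 11 were called at 1.5, 12 and 24 h. The direction of the ratio was read from FKBP5, so the direction of its calls, also after CHX, is no result of this list. The FKBP5 calls at 3 h and 6 h were lost in 13 and 6 of 20 settings. After CHX 1, 1, 4, 3 and 2 of 11 rose at the 5 durations and 0 fell. The 4 that rose at 6 h, where 0.758% of all features were called higher, were FKBP5 by a log2 difference of 1.82, NFKBIA by 1.26, PDK4 by 0.99 and BCL6 by 0.84. Without replicate 3 in every group NFKBIA, PDK4 and BCL6 lost their calls at 6 h (limma's adjusted p = 0.463, 0.0502 and 0.0857). At 24 h FKBP5 (1.26) and BCL6 (0.66) were higher, and the BCL6 call was lost in 7 of 20 settings (limma's adjusted p = 0.232 without replicate 4 in every group). Of the 11 targets tested, 6 lay above CHX alone at 6 h after CHX and 5 below, with a median log2 difference of 0.09. FOXC2 at 6 h, at 0.87, lay in the range of the 4 called targets, and SALL1 and KLHL14 lay below 0, as did those 5. Since FOXC2 was chosen for its values after CHX, nothing is read from its place among them. Between arms at 6 h the 4 called targets were also called higher after CHX. Their log2 differences there were 0.76 for FKBP5, 2.30 for NFKBIA, 0.74 for PDK4 and 0.77 for BCL6. In that comparison 7 of the 11 targets lay above 0 and 4 below, and 2.87% of all features were called higher.

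The next protein-coding genes in the RefSeq order (assembly GRCg7b) gave few values. TOX3, next to SALL1, was at -0.00 (SE 0.20) at 24 h of CORT after CHX, where SALL1 was at -1.99. MTHFSD, next to FOXC2, was at 0.34 (SE 0.13, limma's adjusted p = 0.274) at 6 h, where FOXC2 was at 0.87. The nearby forkhead genes FOXL1 and FOXF1 and the neighbours of KLHL14 were not analysed here.

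Markers of several cell types were lower at 24 h of CORT after CHX, the group in which SALL1 and KLHL14 were lowest. The mean log2 ratio of 13 of 14 fibroblast markers was -0.26 (range over 4 samples -0.44 to -0.11) against 0.05 (-0.18 to 0.23) with CHX alone, 9 of the 13 lay lower, and FN1, a matrix glycoprotein, fell by 0.69 (limma's adjusted p = 0.025, and 0.281 without replicate 2 in every group; lost in 7 of 20 settings, in each of which replicate 2, 3 or 4 of 1 or all groups was left out). For 5 of 10 pericyte and smooth muscle markers it was -0.32 (-0.38 to -0.25) against -0.08 (-0.24 to 0.09), and ACTA2, smooth muscle actin, fell by 0.74 (limma's adjusted p = 0.0119, and 0.219 without replicate 2 in every group; lost in 5 of 20 settings, again with replicate 2, 3 or 4 left out). For 9 of 14 neuron and glia markers it was -0.32 (-0.47 to -0.20) against 0.02 (-0.09 to 0.18), and 0 of these 9 were called. Of the pericyte markers 4 of 5 lay lower, and of the neuron and glia markers 6 of 9. The median log2 differences were -0.22, -0.12 and -0.13 in the fibroblast, pericyte and neuron lists, against 0.05 over all features.

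The other lists had smaller or upward differences. The 11 of 15 endocrine markers had a mean of -0.18 (-0.22 to -0.13) against -0.02 (-0.13 to 0.05). The 7 of 12 endothelial markers stood at 0.06 (-0.04 to 0.19) against -0.08 (-0.23 to 0.02), 7 of 12 immune and microglia markers at 0.03 (-0.04 to 0.09) against -0.02 (-0.09 to 0.04), and 3 of 12 red blood cell markers at 0.21 (0.05 to 0.41) against -0.06 (-0.29 to 0.12). Against 24 h of CORT without CHX, where SALL1 differed by -1.54 and KLHL14 by -1.83, some single markers were lower by similar amounts. TUBB3, a neuronal tubulin, gave a log2 difference of -2.19 (limma's adjusted p = 0.0106), TSHB, a thyrotropin subunit, -1.78 (0.000224), and CHGA, a protein of secretory granules, -1.38 (0.0187). ACTA2 gave -0.87 (limma's adjusted p = 0.00161) and RGS5, a pericyte gene, -0.49 (0.00157). At 24 h between arms 6 of 9 neuron and glia, 6 of 11 endocrine and 4 of 5 pericyte markers lay lower and the rest higher. The median log2 differences of these lists were -0.11, -0.05 and -0.24, against 0.04 over all features. Between arms NEFL, a neurofilament gene, gave -0.83 at 6 h and -0.86 at 12 h (limma's adjusted p = 0.0218 and 0.0356), and TSHB -1.21 at 12 h (0.0219). These between-arm calls are named after their values were seen. Unlike the calls of FN1 and ACTA2 against CHX alone, they were not repeated in other settings. The part of cell composition in the low SALL1 and KLHL14 values was not tested.

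At 6 h after CHX, where FOXC2 was high, 5 of 5 pericyte markers lay above CHX alone. Their mean was 0.09 (0.04 to 0.16) against -0.08 (-0.24 to 0.09), ranges that overlap. Endothelial markers, from cells in which FOXC2 is known to act, stood at -0.09 (-0.24 to 0.01), and fibroblast markers at 0.00 (-0.08 to 0.04), with ranges that overlap those of CHX alone. Neuron and glia markers stood at -0.28 (-0.49 to -0.01), which also overlaps. No marker of these lists was called at 6 h against CHX alone, and their part in the FOXC2 value was not tested.

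**Figure D5:**
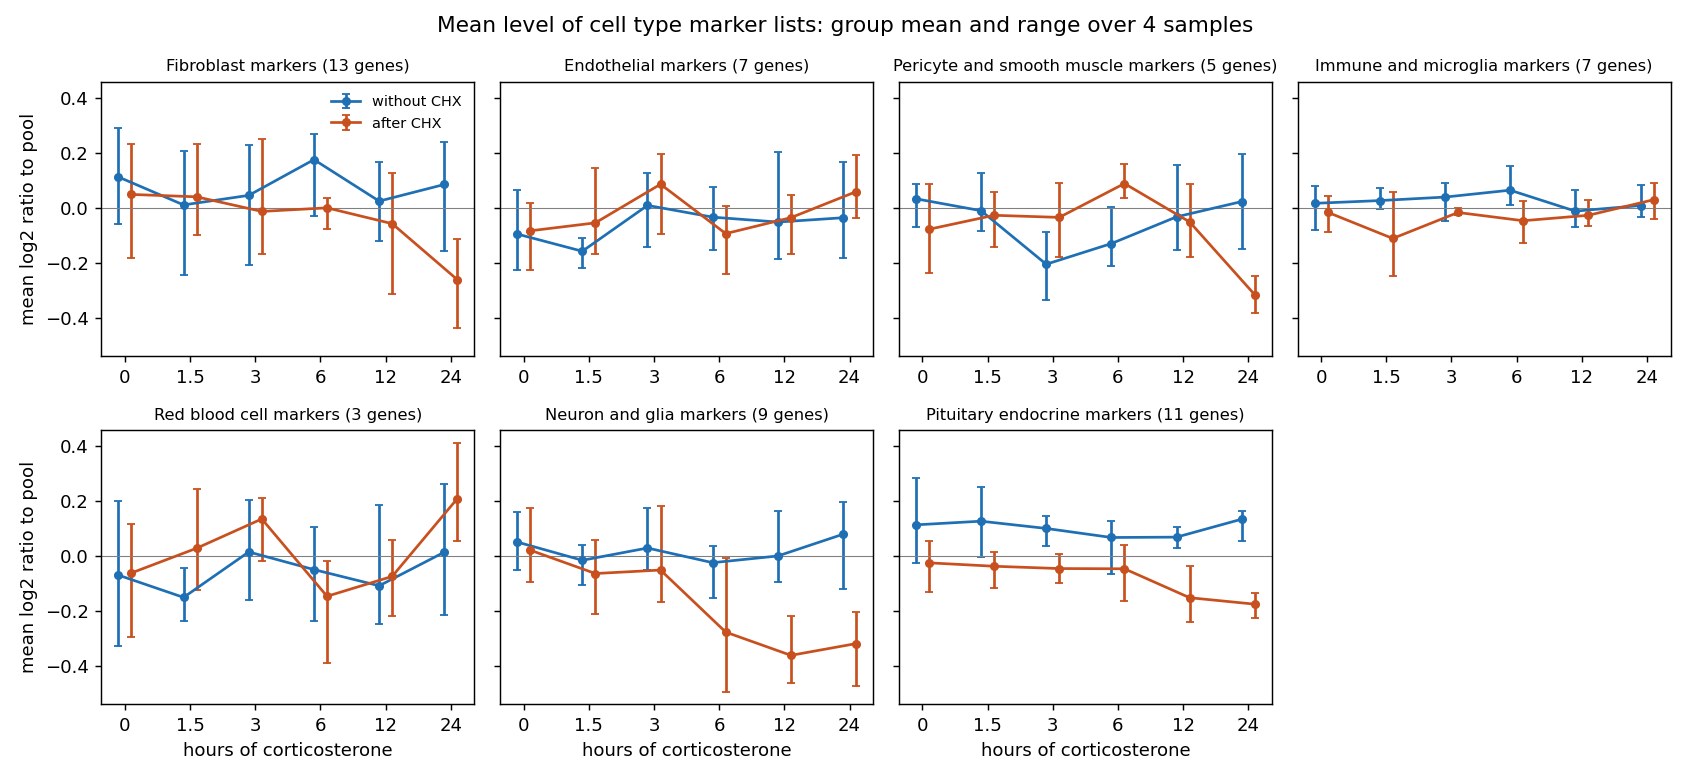
Mean log2 ratio to the pool (vertical axis) of the measured genes in 7 marker lists against hours of CORT (horizontal axis), without CHX and after CHX. Points are group means and bars the range over 4 samples. Fibroblast, pericyte and neuron lists are at -0.26, -0.32 and -0.32 at 24 h after CHX, and the endothelial list is at 0.06.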

How the data were processed

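The authors deposited 1 value per probe and array, read here as a log2 ratio of the Cy3-labelled sample to a Cy5-labelled pool of all 48 samples, per the labels' protocols. The table held 19200 probes. RNA was amplified from an oligo(dT) primer before labelling, per the labels' protocols, and background correction, normalisation and the log base are not given in the sources used here. Array medians lay between -0.038 and 0.048 and array SDs between 0.301 and 0.324, so the deposited values had been centred and scaled, which takes out differences in total RNA and may shrink large changes. The labels mention fewer slides than samples, which was not resolved.

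The array's annotation named 1 gene for 10601 probes, several for 0 and none for 8599, and 10455 named probes were found in RefSeq's gene table (GRCg7b). Probes of a gene were averaged, unnamed probes kept singly, and a feature needed a value on 3 of 4 arrays in each group, which left 11207 of 15027 features. All arrays entered 1 group-means model in limma 3.58.1 (R 4.3.3), with 36 residual degrees of freedom where no value was missing, two-sided tests and Benjamini-Hochberg adjustment over all features within each comparison at 0.05. No 2 arrays held equal values.

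The members and gene lists were chosen with earlier results of these data known. Named genes are the 3 members, the 5 most and 2 least correlated genes of each, list genes called in any of the 11 comparisons with a 0 h group, and FKBP5. Other genes named (partner probes, neighbours, examples from lists and calls between arms) were picked after their values were seen. Alternatives were the replicate number as a block, array weights, quantile and median scaling, other filters, exact zeros as missing, each comparison's own groups only, samples left out, and an exact permutation test. Each member has 1 probe, so taking probes singly changes nothing. Unless another setting is named, differences, intervals and p-values are from the model without pairing. The replicate block was an alternative run for all comparisons. Samples were called paired by number where deviations from group means correlated above 0.1 in every same-numbered pair. This held in 6 of 16 comparisons (CORT 24 h against untreated, CORT 1.5 h and 6 h after CHX against CHX alone, and the arms at 1.5, 6 and 24 h). Over all comparisons 50 of 64 pairs correlated above 0.1 (range -0.49 to 0.88). The cutoff does not show pairing, because 51.6% of the spread within groups ran along 1 axis shared by the arrays. At 1.5 h after CHX against CHX alone, number 3 reached 0.11 and did not correlate best with its own number. The model was tested on simulated data with independent noise for each feature and array. Such data lack the axis shared by the real arrays, so this check says nothing on its effect. Figures were drawn with matplotlib 3.10.9 in Python 3.11.15.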

Additional observations from a re-analysis of the deposited data

Results flagged for a closer look

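Of the 36 sets of 4 samples (3 genes in 12 groups), 3 had 1 sample far from the others, by a gap over range above Dixon's critical value for 4 samples, which chance gives in about 1 of 20 sets. SALL1 with CHX alone had replicate 1 at -0.05 against 0.61, 0.69 and 0.62 (gap over range 0.886). KLHL14 at 3 h of CORT after CHX had replicate 4 at 0.68 against -0.67, -0.88 and -0.71 (0.861). FOXC2 at 1.5 h of CORT after CHX had replicate 1 at -0.30 against 0.09, 0.07 and 0.03 (0.848).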

How the results depend on the processing

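Of 975 member differences recomputed under the alternatives, 954 kept their sign and 21 turned, in 9 differences and each time with samples left out. The turned differences were, for CORT alone against untreated, FOXC2 at 1.5 h (-0.12 to 0.20) and 12 h (-0.23 to 0.0061), and KLHL14 at 1.5 h (-0.053 to 0.24) and 3 h (-0.36 to 0.16). The others were CHX alone against untreated for SALL1 (-0.32 to 0.097) and KLHL14 (-0.27 to 0.063), FOXC2 at 1.5 h (-0.053 to 0.14) and 24 h (-0.043 to 0.16) after CHX against CHX alone, and SALL1 between arms at 1.5 h (-0.34 to 0.060). The 315 repeats of the tests of CORT alone gave 0 calls, with a lowest adjusted p of 0.492, and the exact permutation test of each difference gave p between 0.143 and 0.943, where 0.0286 is the smallest it can give. Leaving out samples moved FOXC2 at 12 h after CHX against CHX alone (0.32 to 0.74). Between arms, the call of SALL1 at 24 h was lost without CORT 24 h replicate 2 (-1.29) or CORT 24 h after CHX replicate 4 (-1.34). It was also lost without either number in every group (-1.30 each). The call of FOXC2 at 12 h was lost in 8 of 20 settings (0.58 to 0.76). Whether kept or lost, these calls are no test of the members, which were chosen for their values after CHX.

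Calls of listed genes between arms were not recomputed under the alternatives. Of the listed genes' other calls, FKBP5 at 6 h after CHX held in 20 of 20 settings. At 6 h after CHX NFKBIA, PDK4 and BCL6 lost theirs in 4, 2 and 4. Counts of features called moved more. For CORT alone at 1.5, 3, 6, 12 and 24 h they were 0, 3, 11, 2 and 2. After CHX against CHX alone they were 2, 3, 129, 126 and 251, between arms 44, 18, 440, 157 and 555, and for CHX alone 2. With the replicate number as a block they became 6 for CHX alone, 5 and 5 for CORT alone at 1.5 and 24 h, 29, 375, 547 and 753 after CHX at 3 to 24 h, and 192, 68, 956, 641 and 1558 between arms. The block changed no other call of a member at a paired duration than that of FOXC2 at 24 h between arms, where 13.9% of all features were called with it. Elsewhere the samples share only a number. There FOXC2 and SALL1 at 12 h after CHX against CHX alone were called with the block, as were 4.88% of all features. The choice of the genes used these comparisons, so the calls of members are no test of them. Of 64 pairs 40 correlated best with their own number. Array weights gave 4 for CHX alone, 28, 6 and 4 for CORT alone at 1.5, 3 and 24 h, 7, 1472, 292, 430 and 809 after CHX, and 163, 329, 740, 639 and 1866 between arms. Quantile scaling gave 2, 1 and 1 for CORT alone at 1.5, 12 and 24 h, 1 and 9 after CHX at 1.5 and 3 h, and 25 between arms at 1.5 h. Median centring gave 7, 1 and 1 for CORT alone at 6, 12 and 24 h, 1 after CHX at 1.5 h, and 27 and 96 between arms at 1.5 and 12 h. Features with all 48 values gave 5 and 0 for CORT alone at 6 and 12 h. Each comparison's own 8 arrays gave 0 for CHX alone, 7, 0 and 0 for CORT alone at 6, 12 and 24 h, 0, 0, 15, 1 and 139 after CHX, and 6, 0, 259, 0 and 313 between arms, with fewer samples by construction. Otherwise the cause of these changes was not tested.

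Leaving out samples gave 0 to 2 for CHX alone, 0 to 1, 0 to 3, 1 to 12, 0 to 1 and 0 to 3 for CORT alone, 0 to 8, 0 to 21, 15 to 150, 11 to 181 and 59 to 315 after CHX, and 1 to 58, 0 to 41, 80 to 430, 8 to 327 and 56 to 865 between arms. The number of arrays limits all of this, and signal over background is unknown.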
